A study of Mus musculus with 5 samples.

Results

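The S100 genes encode small calcium-binding proteins, and 10 of them were followed in the mouse mammary tumour line NT2.5 and in its bone-seeking and liver-seeking sub-lines. They are S100a1, S100a4, S100a6, S100a8, S100a9, S100a10, S100a11, S100a13, S100a14 and S100a16, taken by symbol from a platform annotation whose probe sets cover 18193 genes. Of the 10, 9 had at least 1 probe set annotated to them and to no other gene, 13 probe sets in all. The only probe set of S100a11, which encodes an annexin A1 partner, is also annotated to a pseudogene and a predicted gene, so no value is given for it. S100a9 was below the filter on low values on every array, and 8 members were tested among 12609 genes. These 8 were above the filter's floor, an intensity of 25.1, on each of the 5 arrays, so none of them passed only through a line in which it is high.

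NT2.5 was established from a mammary tumour of mice that carry the rat neu oncogene under the MMTV promoter, and all lines compared here share that origin. The bone sub-line was measured at passage 6 (final) and passage 3 (early), the liver sub-line at passage 3 (final) and passage 1 (early), and the parental cells, for which the labels name lung beside both organs, once. Each was 1 array of 1 RNA sample, and each sub-line is a single lineage. The p-values below thus rest only on the spread between passages of a sub-line, which limma moderates with the spread over all genes. That spread may be technical. Over all probe sets the median was 21.9 and 26.4 at bone passages 6 and 3, 26.2 and 24.6 at liver passages 3 and 1, and 26.1 in parental cells. The epithelial marker Epcam was at 4384 and 4262 at the bone passages, 3761 and 3980 at the liver passages and 4014.5 in parental cells, and 8 of the 9 epithelial markers were above the floor on all arrays, Krt19 being the exception.

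S100 proteins carry a pair of EF-hand motifs, helix-loop-helix folds that bind calcium. On binding it, most of them open a surface that docks onto target proteins such as annexins, myosins and receptors, and some are secreted and signal through the receptor RAGE or the innate receptor TLR4. In breast cancer the family is best known for S100A4, also called metastasin, which binds non-muscle myosin IIA and is linked to cell motility and metastasis, and for the S100A8-S100A9 heterodimer calprotectin, which is abundant in neutrophils and is also made by epithelia under inflammation.

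All 10 genes lie on mouse chromosome 3, and 8 of them stand in a run of 12 protein-coding genes in RefSeq's order for GRCm38.p6, with S100a11 and S100a10 next to each other farther along. Promoter windows were available for 8 members, as 250 bases before the annotated gene start in RefSeq's GRCm38.p6. Those of S100a1 and S100a13 are shown first because these genes are neighbours read in opposite directions, and their windows share 104 bases (chr3:90514331-90514434), given in capitals. The S100a1 window is chr3:90514331-90514580 on the minus strand and the S100a13 window chr3:90514185-90514434 on the plus strand, each printed 5′ to 3′ on its gene's own strand.
S100a1: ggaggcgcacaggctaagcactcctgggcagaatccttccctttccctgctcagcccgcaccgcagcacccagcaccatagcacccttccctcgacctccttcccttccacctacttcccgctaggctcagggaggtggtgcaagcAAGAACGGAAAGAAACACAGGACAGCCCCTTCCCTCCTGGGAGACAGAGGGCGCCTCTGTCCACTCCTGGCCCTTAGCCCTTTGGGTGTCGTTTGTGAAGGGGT
S100a13: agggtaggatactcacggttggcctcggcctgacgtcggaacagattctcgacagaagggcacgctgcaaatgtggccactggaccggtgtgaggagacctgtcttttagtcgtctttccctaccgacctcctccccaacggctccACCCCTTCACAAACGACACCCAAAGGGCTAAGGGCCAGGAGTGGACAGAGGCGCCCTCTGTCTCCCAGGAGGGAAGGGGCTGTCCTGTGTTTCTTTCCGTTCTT
The windows of S100a4 (chr3:90603520-90603769, plus strand) and S100a8 (chr3:90668821-90669070, plus strand) are shown because these genes differed most between arrays, and their capitals mark the letters TATAAA, the core of a TATA box.
S100a4: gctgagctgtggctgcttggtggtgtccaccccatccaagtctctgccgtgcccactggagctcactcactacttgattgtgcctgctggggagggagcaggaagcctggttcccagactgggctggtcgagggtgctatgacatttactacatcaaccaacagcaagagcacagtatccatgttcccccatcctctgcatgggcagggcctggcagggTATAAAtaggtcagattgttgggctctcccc
S100a8: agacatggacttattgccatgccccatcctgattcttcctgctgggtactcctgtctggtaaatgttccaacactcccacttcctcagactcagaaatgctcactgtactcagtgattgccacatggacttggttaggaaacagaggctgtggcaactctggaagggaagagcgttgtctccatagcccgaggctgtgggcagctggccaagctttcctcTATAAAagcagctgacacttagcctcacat
The letters TATAAA were searched on both strands and were found in these windows only on the gene's strand, beginning 31 bases before the start of S100a4 and 30 bases before the start of S100a8. They were not found in the other 7 member windows (S100a16 has 2), whereas 12.4% of the 32851 promoter windows of this length in the RefSeq table hold them on either strand. The windows of S100a4 and S100a8 have 2 CpG dinucleotides each, those of S100a1 and S100a13 have 8 and 13, and the median of all windows is 6. The AP-1 letters TGANTCA, which read the same on both strands, were present in 6.7% of all windows and, among members, in 1 of the 2 S100a16 windows and in the window of S100a11, but not in the 4 printed here. The C/EBP letters TTNNGCAA, searched on both strands, were present in 9.6% of all windows and, among measured members, only in S100a9, on the reverse strand.

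Across the 5 arrays, 5 of the 8 tested members had a highest intensity at least 2-fold above the lowest, where 27.7% of all genes tested did. These 5 were S100a1, S100a4, S100a8, S100a13 and S100a14, and S100a6, S100a10 and S100a16 stayed within 1.52-fold on the probe set that stands for the gene. Intensities of different probe sets depend on their own hybridisation, so levels are compared only between arrays for the same probe set, never between members.

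**Figure D1:**
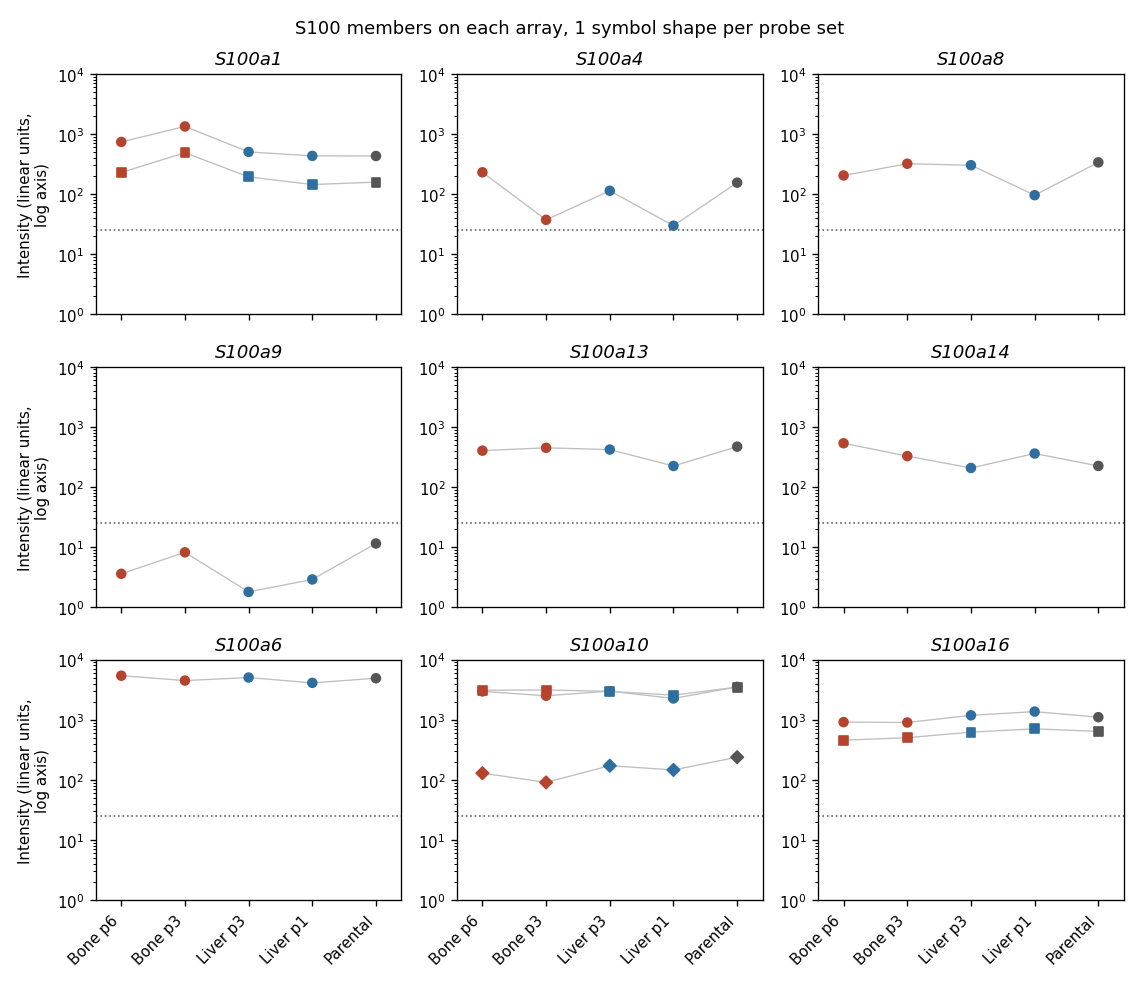
Intensity of 9 S100 members on each of the 5 arrays (linear units on a log axis), with 1 symbol shape per probe set, bone arrays in red, liver arrays in blue and the parental array in grey; the dotted line is the floor of 25.1. S100a4 is lowest at bone passage 3 and liver passage 1, S100a8 is lowest at liver passage 1, S100a1 is highest at bone passage 3, and S100a9 lies below the floor on all 5 arrays.

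S100a4 varied most. Its intensity was 230.3 and 37.3 at bone passages 6 and 3, 113.5 and 29.8 at liver passages 3 and 1, and 154.8 in parental cells. The low arrays were the early passage of each sub-line, and the final passages lay on either side of the parental value. The final passage was 6.17-fold above the early one in bone and 3.81-fold above it in liver. Parental cells in turn were 4.15-fold above bone passage 3 and 5.19-fold above liver passage 1. At passage 3, the number that both sub-lines share, liver was 3.04-fold above bone, whereas bone passage 6 was above both liver arrays. The bone and liver arrays therefore overlapped. Each of these folds uses an early value, 37.3 or 29.8, that is only a little above the floor, so the fold sizes are uncertain.

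No passage has a second array, so the difference between passages was not tested. In bone, S100a4 was the 1 member at least 2-fold higher at passage 6 than at passage 3, beside 1.43% of all genes, and 0 members were as much lower, beside 5.5%. In liver, S100a4 and S100a8 were at least 2-fold higher at passage 3 than at passage 1, beside 4.23% of all genes, and 0 members were as much lower, beside 2.62%. Among all genes tested, 43 (0.341%) were at least 2-fold higher at the final than at the early passage in both sub-lines, and S100a4 was the 1 member among them. On the log2(intensity + 16) scale, which damps dim genes, 9 genes (0.0714%) were, and S100a4 was again among them. At least 2-fold lower in both were 0.523% of all genes and 0 members. S100a4 was also 1 of 10 genes (0.0793%) whose 2 early arrays were at least 2-fold below each of the other 3 arrays. This grouping of arrays follows the S100a4 values above, so its share describes how common the pattern is and is no test. S100a4 has a single probe set, so no second probe set bears on this pattern.

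S100a4 is also known as fibroblast-specific protein 1, so fibroblast markers are given beside it. Of the 8 fibroblast markers, 5 were below the floor on every array, among them Pdgfrb, Dcn and Lum. Pdgfra and Col1a2 were above it on every array, and Col1a1 at liver passage 1 and in parental cells. Pdgfra was at 48.8 and 71.6 at bone passages 6 and 3, 124.5 and 138.3 at liver passages 3 and 1, and 132.2 in parental cells. The summed intensity of all 8 was 146.1 and 165.3 at bone passages 6 and 3, 236.4 and 253.2 at liver passages 3 and 1, and 257.9 in parental cells. This sum did not separate the early from the final arrays. The part of fibroblasts in the S100a4 values was not tested. Of the 10 tested EMT markers, 0 were at least 2-fold apart between final and early passage in the same direction in both sub-lines. Among 20 tested S100 partners other than annexins and Ahnak, 1 was higher in both, beside 0.341% of all genes. This was Plau, outside the naming rule, at 72.4 and 27.1 at bone passages 6 and 3 and 93.1 and 42.6 at liver passages 3 and 1. Among 4 tested genes of the list of other S100 genes, which also holds the binding-protein gene S100pbp, S100b was lower in both, beside 0.523%. Only at bone passage 3 was S100b above the floor. S100a4's partner Myh9, the heavy chain of non-muscle myosin IIA, lies outside the naming rule and ranged from 2842 at bone passage 3 to 3427 at liver passage 3.

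**Figure D2:**
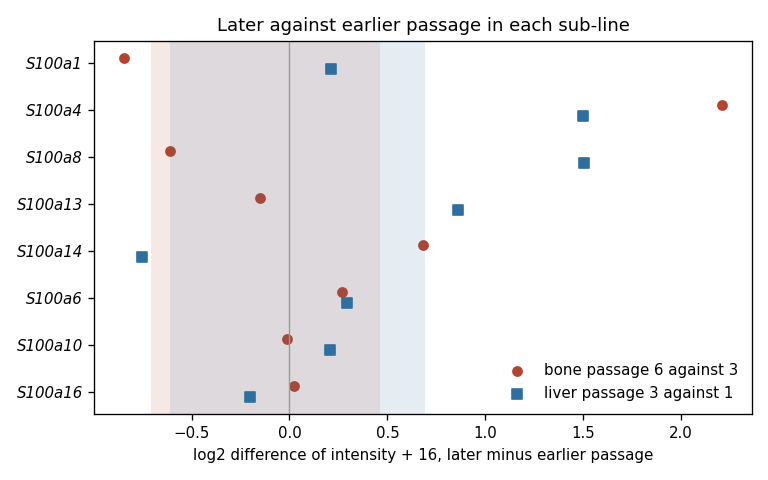
Difference between the later and the earlier passage of each sub-line for the 8 tested members (log2 of intensity + 16), with circles for bone passage 6 against 3 and squares for liver passage 3 against 1; the shaded bands span the 5th to 95th percentile of all genes tested, in the colour of their sub-line. S100a4 lies to the right of both bands, at 2.21 in bone and 1.5 in liver, and S100a14 lies outside both on opposite sides, at 0.68 in bone and -0.75 in liver; S100a8 (1.51) and S100a13 (0.86) lie outside in liver alone and S100a1 (-0.84) in bone alone.

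S100a8 encodes a calgranulin of neutrophils and inflamed epithelia. Its probe set read 203.9 and 319.7 at bone passages 6 and 3, 301.9 and 95.9 at liver passages 3 and 1, and 336.8 in parental cells. Liver passage 1 was the low array, and the remaining sub-line arrays were between it and the parental value. Liver passage 3 was 3.15-fold above liver passage 1, and bone ran the other way, with passage 3 being 1.57-fold above passage 6. S100a8 was 1 of 141 genes (1.12%) at least 2-fold lower at liver passage 1 than on each other array. This share follows the order of the S100a8 values and is no test of them. The bone and liver arrays overlapped.

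S100a9, which encodes the partner of S100A8 in calprotectin, was at 3.6 and 8.2 at the bone passages, 1.8 and 2.9 at the liver passages, and 11.5 in parental cells. All 5 values lie below the floor, and they have no order that can be read from so dim a probe set. With no filter on low values, limma gave a log2 difference of -0.34 for bone against parental (95% interval -0.88 to 0.21; adjusted p = 0.775) and of -0.58 for liver against parental (-1.13 to -0.037; adjusted p = 0.703). Of the 12 neutrophil markers measured, 5 were below the floor on every array, among them Camp, Cxcr2 and Itgam. Among the 7 tested, Mmp9 was at least 2-fold higher on both bone arrays (93.2 and 55.2) than on the parental array (21.7). Elane was at least 2-fold lower on both liver arrays (13 and 8.3) than on the parental array (28.5). That is 1 of 7 in each comparison, beside 4.47% and 3.86% of all genes, and limma called 0. The lactoferrin gene Ltf and the lipocalin Lcn2, which epithelia also express, made up most of the list's summed intensity of 11184 and 9010.5 at bone passages 6 and 3, 9058 and 9234 at liver passages 3 and 1, and 11497 in parental cells. Macrophage markers summed to 1254.5 and 806.7 at the bone passages, 837.9 and 920.3 at the liver passages and 619.8 in parental cells, and 6 of the 14 were below the floor on every array. Cd14 made up most of the bone sums, with 928.2 and 450.2 in bone, 242.0 and 212.2 in liver and 336.0 in parental cells. Of the 8 macrophage markers tested, 3 were at least 2-fold higher on both liver arrays than on the parental array and 0 were as much lower. Over all genes the share in either direction was 3.86%, and limma called 0 of these markers. The 3 were Cd68, Csf1r, at 220.0 and 168.7 in liver against 67.6 in parental cells, and Fcgr3, at 19.7 and 30.4 in liver against 2.4 in parental cells. Fcgr3 passed the filter only through liver passage 1, and its value at liver passage 3 was below the floor. Liver passage 1, the array on which S100a4, S100a8 and S100a13 were lowest, had the highest Lyz2 (140.4), Adgre1 (49.9), Fcgr3 and Ptprc (25.7). Cd68 was also highest there, but by little (173.1 against 172.0 at liver passage 3). Mrc1, Aif1 and Mpeg1 were highest there too, below the floor. Csf1r, Fcgr1, Cd163, Clec4f, Vsig4 and Cd14 were highest on other arrays, and Cd14 was lowest at liver passage 1. The part of such cells in these values was not tested. Of the markers of the host organs, 3 of 6 for hepatocytes and 2 of 4 for osteoblasts were below the floor on every array, Alb among them. The osteoblast marker Alpl was bright, at 395.2 and 444.9 in bone, 108.1 and 142.6 in liver and 470.3 in parental cells. It was at least 2-fold higher in every bone-liver pair (limma adjusted p = 0.0673), beside 2.14% of all genes in either direction. Sp7, the other osteoblast marker above the floor, was not.

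S100a13 takes part in the release of FGF1 and interleukin 1 alpha, proteins that leave cells without a signal peptide. Its intensity was 402.2 and 448.3 at bone passages 6 and 3, 419.1 and 223.5 at liver passages 3 and 1, and 468.8 in parental cells. As for S100a8, liver passage 1 stood below the other 4 arrays, which lay between 402.2 and 468.8. Liver passage 1 was the lowest array for 5 of the 8 tested members, S100a4, S100a6, S100a8, S100a10 and S100a13, against 23.7% of all genes tested. The members are measured on the same array and are not independent of each other.

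S100a1, known best as a regulator of calcium cycling in heart muscle, went with the bone sub-line. Its probe set had 736.0 and 1333 at bone passages 6 and 3, 502.7 and 431.5 at liver passages 3 and 1, and 430.0 in parental cells. Both bone arrays were above all others, the early passage most of all, at 3.10-fold above parental cells against 1.71-fold for passage 6. Its second probe set had 228.5 and 487.7 in bone, 193.1 and 144.1 in liver and 157.9 in parental cells, the same order of lines. The mean was 1034.5 ± 422 in bone and 467.1 ± 50.3 in liver (SD, n = 2 passages each). At the shared passage 3, bone was 2.65-fold above liver on the first probe set and 2.53-fold above it on the second. S100a1 and S100a4 were the 2 members at least 2-fold apart at that passage, in opposite directions, beside 8.7% of all genes.

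None of this passed the test over all genes. S100a1 had a log2 difference of 1.06 ± 0.30 for bone against liver (SE; 95% interval 0.33 to 1.80; limma adjusted p = 0.223). Against parental cells the difference was 1.18 ± 0.37 for bone (0.28 to 2.07; limma adjusted p = 0.443) and 0.11 ± 0.37 for liver (-0.79 to 1.01; limma adjusted p = 0.970). Without bone passage 3 the bone-liver difference was 0.64 and without bone passage 6 it was 1.49 (limma adjusted p = 0.0950), and limma called S100a1 in neither case. S100a13, whose promoter window overlaps that of S100a1 in the sequences above, was at 1.07-fold in bone against liver at passage 3, and its bone-liver difference was 0.45 ± 0.30 (-0.29 to 1.19; limma adjusted p = 0.543).

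S100a14, a member of epithelial tissues, was high at bone passage 6. Its intensity was 533.5 and 326.2 at bone passages 6 and 3, 207.1 and 360.0 at liver passages 3 and 1, and 224.1 in parental cells. Both bone arrays and liver passage 1 were above the parental array, and liver passage 3 was close to it. The passages went opposite ways, with bone passage 6 at 1.64-fold of passage 3 and liver passage 3 at 0.575-fold of passage 1. Against parental cells the log2 difference was 0.85 ± 0.41 for bone (SE; 95% interval -0.15 to 1.86; limma adjusted p = 0.674) and 0.27 ± 0.41 for liver (-0.73 to 1.27; limma adjusted p = 0.924).

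S100a16, a widely expressed member, differed little in size but with little spread between passages. Its intensity was 915.1 and 901.2 at bone passages 6 and 3, 1186 and 1368 at liver passages 3 and 1, and 1104 in parental cells. Both bone arrays were below the parental value and both liver arrays above it. The means were 908.2 ± 9.83 in bone and 1277 ± 129 in liver (SD, n = 2 passages each). The log2 difference for bone against liver was -0.48 ± 0.18 (SE; 95% interval -0.93 to -0.034; limma adjusted p = 0.327). Its second probe set gave -0.46 for the same difference, with 457.3 and 503.2 in bone, 623.7 and 706.8 in liver and 640.8 in parental cells, so that there liver passage 3 was just below the parental value.

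S100a6, or calcyclin, had the narrowest range. Its intensity was 5406 and 4486.5 at bone passages 6 and 3, 5036 and 4110 at liver passages 3 and 1, and 4904 in parental cells. The final passage was 1.20-fold above the early one in bone and 1.23-fold above it in liver, and the lines overlapped. The log2 difference was 0.0061 ± 0.25 for bone against parental (SE; 95% interval -0.61 to 0.62) and 0.11 ± 0.21 for bone against liver (-0.39 to 0.62). A difference of up to about 1.5-fold therefore remains within these intervals, and its partner gene Cacybp, outside the naming rule, was at 2343 and 1913 in bone, 2007 and 1866 in liver and 1685 in parental cells.

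S100a10 encodes p11, a member that does not bind calcium and forms a tetramer with annexin A2. Its leading probe set had 3101 and 3133 at bone passages 6 and 3, 2964.5 and 2570 at liver passages 3 and 1, and 3481 in parental cells. All sub-line arrays were below the parental array. The second probe set had the same order against parental cells, with 2963 and 2507 in bone, 2997 and 2261 in liver and 3527 in parental cells. The third had 129.5 and 90.9 in bone, 172.3 and 146.6 in liver and 238.7 in parental cells, so that its bone-liver log2 difference was -0.49 where the leading one gave 0.17. The direction between bone and liver thus depends on the probe set, as does the size against parental cells, where the third probe set gave -1.03 for bone and -0.54 for liver. For the leading probe set the difference from parental cells was -0.16 ± 0.23 for bone (SE; 95% interval -0.71 to 0.39; limma adjusted p = 0.931) and -0.33 ± 0.23 for liver (-0.88 to 0.21; limma adjusted p = 0.806). Its partner gene Anxa2, outside the naming rule, was at 3524 and 2689 in bone, 3647 and 3615 in liver and 3646 in parental cells.

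The bone and liver sub-lines and the parental cells were compared to learn which genes go with the preference for a site. Of the 8 members, limma called 0 in each of the 3 comparisons at an adjusted p under 0.05, where it called 0.19% of all genes for bone against liver, 0.135% for bone against parental and 0.0159% for liver against parental. At an unadjusted p under 0.05 there were 2 members for bone against liver (S100a1 and S100a16), 1 for bone against parental (S100a1) and 0 for liver against parental, beside 14.1%, 8.17% and 7.49% of all genes. The median log2 difference of the 8 members was 0.49 for bone against liver, with 7 positive and 1 negative, beside -0.023 over all genes tested. Both rested on liver passage 1, without which the median was -0.0069, with 4 positive and 4 negative. For bone against parental it was -0.15 and for liver against parental -0.22, with 3 positive and 5 negative in each, beside -0.019 and 0.014. Both of these use the same parental array. The arrays did not overlap between bone and liver for 3 of the 8 members (S100a1, S100a10 and S100a16), beside 47.1% of all genes. Against the parental array they did not overlap for 6 of the 8 in bone and 6 of the 8 in liver, beside 71.1% and 68.1%.

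**Figure D3:**
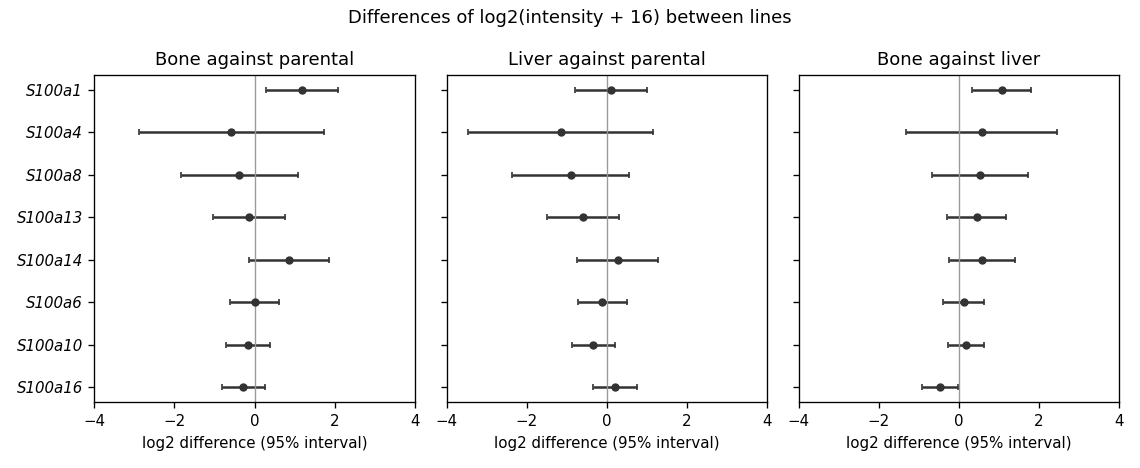
Log2 difference of intensity + 16 for the 8 tested members, in 3 comparisons, with the 95% interval of the limma fit (2 passages per sub-line, 1 parental array); the vertical line is no difference. The interval is to the right of 0 for S100a1 in bone against parental and bone against liver and to the left of 0 for S100a16 in bone against liver, none of them past the threshold after adjustment, and it is widest for S100a4.

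For S100a4 the spread between the passages of a sub-line was larger than any difference between lines. Its log2 difference was 0.57 ± 0.78 for bone against liver (SE; 95% interval -1.31 to 2.46; limma adjusted p = 0.770), -0.58 ± 0.95 for bone against parental (-2.89 to 1.74; limma adjusted p = 0.944) and -1.15 ± 0.95 for liver against parental (-3.46 to 1.16; limma adjusted p = 0.846). For S100a8 it was 0.53 ± 0.49 for bone against liver (-0.67 to 1.72; limma adjusted p = 0.666) and -0.90 ± 0.60 for liver against parental (-2.37 to 0.56; limma adjusted p = 0.806). Intervals this wide hold 2-fold differences in either direction for S100a4 between bone and liver. In none of the 3 comparisons did every pair of arrays differ at least 2-fold for a member, whereas they did for 2.14% of all genes for bone against liver, 4.47% for bone against parental and 3.86% for liver against parental. Of single arrays against parental cells, S100a1 and S100a4 were at least 2-fold apart at bone passage 3, beside 1082 of the 12609 genes tested. S100a14 was as far apart at bone passage 6, beside 1185 genes. At liver passage 1 S100a4, S100a8 and S100a13 were, beside 1145 genes, and at liver passage 3 0 members were, beside 960 genes.

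Within the gene cluster the members did not share 1 profile. From S100a1 to S100a8 along the chromosome, S100a1 and S100a4 stood at opposite extremes at bone passage 3, at 3.10-fold and 0.241-fold of parental cells, with S100a13 at 0.956-fold, S100a14 at 1.46-fold and S100a16 at 0.816-fold between them. At liver passage 1 S100a4 was at 0.193-fold, S100a8 at 0.285-fold and S100a13 at 0.477-fold of parental cells, while S100a14, next to S100a13, was at 1.61-fold. The tested genes on the S100a1 side of the cluster, Ints3, Ilf2, Snapin and Chtop, had a highest intensity 1.37-fold to 1.68-fold above the lowest over the 5 arrays, against 1.32-fold to 7.73-fold for the members in the cluster.

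**Figure D4:**
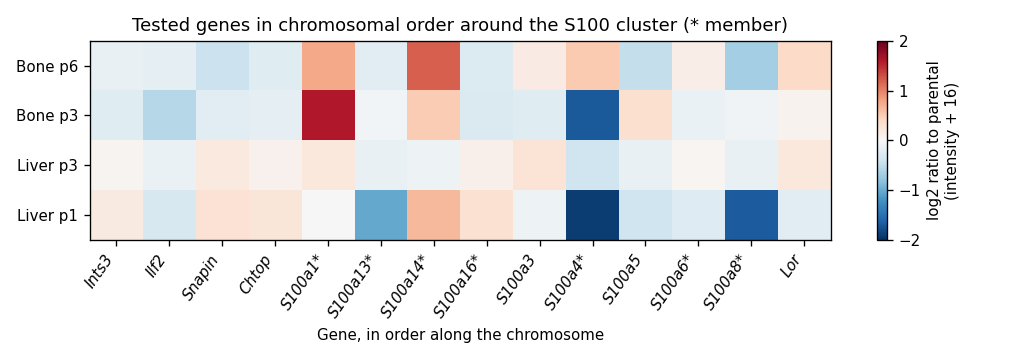
Log2 ratio of each sub-line array to the parental array (intensity + 16) for the tested genes of the S100 cluster and its neighbours, in their order along the chromosome and without distances, with members marked by an asterisk. The darkest cells are those of S100a1 and S100a4 at bone passage 3 and of S100a4 and S100a8 at liver passage 1, and the neighbouring genes are pale.

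Outside the 10 members, other S100 genes were dim. S100b, a member of glial cells and adipocytes, had 19.1 and 67.9 at bone passages 6 and 3, 4.9 and 11.7 at liver passages 3 and 1, and 7.0 in parental cells, a log2 difference of 1.24 ± 0.51 for bone against parental (SE; limma adjusted p = 0.608). Only bone passage 3 was above the floor. S100a3 had 23.4 and 13.7 in bone, 26.4 and 16.7 in liver and 19.2 in parental cells, and S100a5 had 13.7 and 35.5 in bone, 21.2 and 15.4 in liver and 25.3 in parental cells. S100g was at 1.7 or less on every array. S100pbp, in the same list but encoding a binding protein, was above the floor throughout. It had 182.6 and 154.5 in bone, 187.8 and 128.7 in liver and 186.1 in parental cells. The 5 measured genes that fuse an S100 domain to a long repeat, such as filaggrin (Flg), were below the floor on all arrays.

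Partners and receptors of S100 proteins were tested beside the members, and limma called 0 in each list and comparison. At an unadjusted p under 0.05, bone against liver had 2 of 9 receptors, 2 of 9 annexins with Ahnak, 3 of 20 other partners and 4 of 16 other EF-hand proteins, beside 14.1% of all genes. Cd68, a macrophage protein entered in the receptor list, was at least 2-fold apart between liver and parental arrays, at 172.0 and 173.1 against 52.1 (log2 difference 1.47 ± 0.25, SE; limma adjusted p = 0.206), with 74.8 and 103.2 in bone. The cytokine gene Il1a, whose product S100A13 helps to export, was at 5.7 and 1.9 in bone and 13.6 and 20.8 in liver, against 25.3 in parental cells. Its difference for bone against parental was -1.07 ± 0.26 (limma adjusted p = 0.305), and all its bone and liver values were under the floor. The actin-bundling EF-hand gene Lcp1 was at 201.4 and 439.4 in bone and 244.4 and 237.9 in liver, against 1101 in parental cells (-1.83 ± 0.43 for bone and -2.12 ± 0.43 for liver; limma adjusted p = 0.304 and 0.270).

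Genes of the epithelial acute phase, which often accompany S100a8, were tested beside it. Of 13, 3 had an unadjusted p under 0.05 for bone against liver, 3 for bone against parental and 2 for liver against parental, beside 14.1%, 8.17% and 7.49% of all genes, and limma called 0 in each. Slpi, a secreted protease inhibitor, was at 4720 and 4273 in bone and 3694 and 3327 in liver, against 1640 in parental cells (1.44 ± 0.23 for bone and 1.09 ± 0.23 for liver; limma adjusted p = 0.111 and 0.292). Every sub-line array was at least 2-fold above the parental one. The peptidoglycan receptor Pglyrp1 was at 423.1 and 463.9 in liver against 1345 in parental cells (-1.57 ± 0.28; limma adjusted p = 0.216), with 765.5 and 1105 in bone. The transcription factor Cebpd was at 114.0 and 293.7 in bone against 587.4 in parental cells (-1.59 ± 0.55; limma adjusted p = 0.503). Haptoglobin (Hp) was at 3.9 and 148.5 in bone and 1.5 in parental cells, with only bone passage 3 well above the floor and liver passage 3, at 27.4, just above it.

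The genes whose profiles over the 5 arrays were nearest to those of the 5 variable members were found by the root mean square difference of centred log2(intensity + 16) values, among 3216 named genes with a range of at least 2-fold. Nearest to S100a4 were Tlr9 (0.35), Slc43a1 (0.43) and Rrm2 (0.45). Tlr9 and Slc43a1 were below the floor on both early arrays. Rrm2, a ribonucleotide reductase subunit, had 2949 and 1544 at bone passages 6 and 3, 2566 and 992.3 at liver passages 3 and 1, and 2495 in parental cells, a profile with the same low arrays but a smaller range than S100a4. Nearest to S100a1 were Gjb1 (0.090), Ighm (0.093) and Gcnt1 (0.11). Gjb1 passed the filter only through bone passage 3, at 38.7, and was below the floor on every other array. Gcnt1, a glycosyltransferase, had 149.8 and 282.0 in bone, 107.4 and 87.1 in liver and 104.2 in parental cells. Nearest to S100a8 were Lrrc18 (0.11), Haghl (0.16) and Lpin1 (0.16), of which the phosphatidate phosphatase Lpin1 had 130.3 and 182.8 in bone, 165.1 and 56.8 in liver and 154.6 in parental cells. Nearest to S100a13 were Pxmp2 (0.071), St6galnac5 (0.073) and Gsc2 (0.076), and nearest to S100a14 were N4bp3 (0.12), Adh6b (0.15) and Mtss2 (0.16). Gsc2 was above the floor only at bone passage 3 (25.6) and Adh6b only at bone passage 6 (25.5). Lrrc18 and St6galnac5 were below it at bone passage 6 and liver passage 1. N4bp3 had 438.2 and 329.8 in bone, 181.1 and 365.4 in liver and 197.4 in parental cells. With 5 arrays, near profiles are easily found. The distance also grows with a gene's own range, which was widest for S100a4, at 7.73-fold. Its nearest gene lay at 0.35, against 0.12 or less for S100a1, S100a8, S100a13 and S100a14. These distances are therefore not comparable between members. No member was among the nearest of another.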

How the data were processed

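RNA of parental NT2.5 cells, 2 bone sub-line passages and 2 liver sub-line passages was measured on 1-colour Affymetrix mouse arrays, 1 sample each. The authors deposited 1 linear intensity for each of 45101 probe sets. RMA is named, with no version, in the submitters' processing notes, but the intensities are not on RMA's log2 scale. Their mean after trimming 2% at each end is 150 on every array, as a global scaling leaves it; further steps are not given in the sources used here. Values were used as log2(intensity + 16) without renormalizing, so a log2 difference understates changes of dim genes.

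The platform annotation lists 34945 probe sets with 1 gene and 932 with several, which were left out. Probe sets were kept where the highest of the 5 intensities reached 25.1, the median of the whole table, and the one with the highest mean log2 value stood for its gene. The 12609 genes were fitted together with limma 3.58.1 (lmFit, eBayes) in R 4.3.3, with the 3 lines as groups and p-values adjusted by Benjamini-Hochberg. Passages took the place of replicates, and the parental line, with 1 array, was taken to have their spread (residual degrees of freedom 2, prior degrees 4.20). The fit was tested on simulated data. Single passages were compared by value and by counts of genes at least 2-fold apart in linear intensity. The number of arrays limits the precision.

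The members, the gene lists and the tests were chosen with earlier results of these data known. The comparison of both early with both final passages, and its alternatives, were added after seeing the values. Named besides the members are, per list and comparison, called genes and up to 4 genes whose pairs of arrays all differ at least 2-fold, and the 3 nearest profiles of each variable member. Other genes are marked as outside this rule, except cell type markers and other S100 genes, which are given as levels. Alternatives varied the filter, the pseudocount (1 and 64), the scaling, the choice of probe set, the variance trend, the fold threshold, a replicate block and the arrays left out.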

Additional observations from a re-analysis of the deposited data

Results flagged for a closer look

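S100a16 lay on opposite sides of the parental array in the sub-lines, with both bone arrays below it and both liver arrays above it (log2 difference bone against liver -0.48 ± 0.18, SE; limma adjusted p = 0.327). The bone-liver difference did not pass the threshold, and on the second S100a16 probe set liver passage 3 was below the parental value. No group had the 4 arrays needed to look for a sample far from the others.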

How the results depend on the processing

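Limma called 0 members in all 3 comparisons under each of the 14 alternatives for bone against liver and the 13 that apply to parental cells. Their lowest adjusted p was 0.0950 for bone against liver (without bone passage 6), 0.129 for bone against parental and 0.428 for liver against parental, and 0 to 4 members had an unadjusted p under 0.05. Over all genes the counts called ran from 0 to 161 (24 reported), 1 to 99 (17 reported) and 0 to 38 (2 reported) in the same order. Early or final stage as a replicate block, possible only for bone against liver, kept S100a1 at 1.06 (limma adjusted p = 0.133), and the 2 members at an unadjusted p under 0.05 were then S100a1 and S100a4 (SE 0.24 in place of 0.78), no longer S100a16; it pairs passages of different number, and nothing in the labels ties them to a shared batch. Of 320 member differences under alternatives, 307 kept their direction. Of those that turned, S100a6 did so with quantile normalization (-0.032 for bone and 0.016 for liver against parental, -0.048 for bone against liver) and with 1 array left out, when it ranged from -0.13 (without bone passage 6) to 0.14 for bone against parental, from -0.25 to 0.038 (without liver passage 1) for liver against parental, and from -0.032 (without liver passage 1; -0.020 without bone passage 6) to 0.26 for bone against liver. With 1 array left out S100a4 ranged from -1.68 to 0.53 (without bone passage 3) for bone against parental and from -0.53 (without bone passage 6; -0.18 without liver passage 1) to 1.68 for bone against liver. S100a14 ranged from -0.11 (without liver passage 1) to 0.65 for liver against parental and S100a8 from -0.23 (without liver passage 1) to 1.28 for bone against liver, and S100a10 turned to -0.083 for bone against liver with the mean of all its probe sets. Members at least 2-fold apart in every pair, 0 as reported, numbered 0 to 2 for bone against parental, 0 to 3 for liver against parental and 0 to 1 for bone against liver with 1 array left out. The counts over all genes rose as well. For bone against parental they went from 563 to 1082 or 1185 with a bone array left out. For liver against parental they went from 487 to 1145 or 960 with a liver array left out. At 1.5-fold, 1 member (S100a1) was apart for bone against parental, beside 1343 genes. The higher S100a4 at the final passages held under median centring, quantile normalization and the log2(intensity + 16) scale; averaging probe sets cannot change it, since S100a4 has 1. The cause of these shifts was not tested. With 1 array per passage, dim signals such as S100a9 cannot be resolved.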
